A study of Homo sapiens with 18 samples.

Results

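Ribosomal RNA (rRNA) was counted in 9 libraries made from total RNA of DLD1 cells, a long-established line from a human colorectal adenocarcinoma, and these are 9 of the 18 libraries of the study. They were taken by the table that counts rRNA and by the guide in each title: 3 libraries carried the control CRISPR guide sgC (labelled WT), 3 carried sgZ1 and 3 carried sgZ3, the 2 guides against the zinc-finger gene ZNF692 (labelled ZNF692 KO). All cells were grown in DMEM with 5% serum, infected with lentivirus and selected with 10 µg/ml puromycin, controls included. The labels do not say whether a line was a clone or a pool, or whether the replicates are separate cultures. The p-values below therefore refer to the spread among the libraries as deposited, part or all of which may be technical. The other 9 libraries were poly(A)-selected from the same guides, and their total counts ran from 16044224 to 24535642.

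In human cells RNA polymerase I copies the rDNA repeats into a long precursor, the 45S pre-rRNA, which holds the 18S, 5.8S and 28S sequences between transcribed spacers. Endonucleases and exonucleases cut and trim the spacers, while snoRNA-guided enzymes modify bases and riboses. The 18S rRNA enters the small ribosomal subunit, the 28S and 5.8S rRNAs enter the large one, and the 5S rRNA of the large subunit is made separately by RNA polymerase III. A block in one cleavage step is classically read as a change in the ratio of a precursor to its product, or of 28S to 18S.

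The rRNA table held 20 reference entries, which were 5 copies of 45S, 4 of 28S, 5 of 18S, 5 of 5.8S and 1 of 5S, and all 20 matched the RefSeq gene table of GRCh38.p14. The single 5S entry, RNA5S9, had between 0 and 13 estimated counts and carries no weight below. Each 45S entry was 13309 to 13373 bases long and its coordinates enclosed its 3 mature RNAs, which made up 53.1% to 53.2% of its length. Reads from mature rRNA can therefore be assigned to a 45S entry. How the authors divided such shared reads, or reads shared between near-identical copies, is not given in the sources used here. A value for 45S is thus a value for that reference entry, not for intact precursor. Likewise a value for 28S, 18S or 5.8S may leave out mature rRNA reads that were assigned to 45S. A ratio such as 28S to 18S is one between entries, not between ribosomal subunits. A share says nothing of the amount of rRNA per cell.

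The 5.8S sequence is given because the 5.8S share varied most between libraries, and because 3 separate genes on chromosome 21 (GRCh38, plus strand, exonic in GENCODE 29) read the same over the 153 bases annotated there: RNA5-8SN1 at chr21:8439823-8439975, RNA5-8SN2 at chr21:8212572-8212724 and RNA5-8SN3 at chr21:8395607-8395759. The RefSeq entries of these copies are 157 bases long, and the 4 bases outside the printed stretch were not compared. No capitals are used, since no base separates the copies within it.
RNA5-8SN1, RNA5-8SN2 and RNA5-8SN3: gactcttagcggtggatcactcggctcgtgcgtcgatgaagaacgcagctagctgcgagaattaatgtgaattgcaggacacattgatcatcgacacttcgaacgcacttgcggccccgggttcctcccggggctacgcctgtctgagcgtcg
In every library the highest of these 3 copies had 1.077 to 1.09 times the estimated count of the lowest. The sequences of RNA5-8SN4 and RNA5-8SN5 were not compared. RNA5-8SN4 had so few counts that the mean of the other 4 copies was 114.9 to 191.2 times as high. Sums over all copies of a species were therefore used for the main comparison.

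Library totals ran from 48581516 to 74939039 estimated counts, and sgC replicate 1 had the highest. Within each guide the counts of the 3 pairs of libraries differed beyond sampling noise, so no library merely repeated the reads of another. This does not show that they came from separate cultures or separate RNA. In CPM (estimated counts scaled to equal library totals) divided by the entry's length in kilobases, the mean level over all 9 libraries was 56184 for 45S, 41500 for 28S, 20316 for 18S and 15559 for 5.8S. On that scale 28S was 1.793 to 2.335 times 18S (median 2.098).

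No rRNA species was called for a different share between the libraries with a ZNF692 guide and the control libraries over both guides. The 45S entries took nearly the same share everywhere, the 28S and 18S shares differed by no more than the spread between controls, and the 5.8S share varied by 2.35 times within sgC and 3.93 times within sgZ1. The difference in each case was read as the mean log2 share of the 6 libraries with sgZ1 or sgZ3 less that of the 3 sgC libraries. It was tested by a two-sided exact permutation test over the 84 ways to choose 3 of 9 libraries, whose smallest possible p is 0.0119. This test treats the 6 libraries as alike, so its p-values, SEs and intervals mix the spread between guides with that within a guide. P-values were adjusted by Benjamini-Hochberg over 11 measures, the 4 shares and 7 ratios. One measure alone at the smallest p would be adjusted to 0.131, so at least 3 of the 11 must reach it before any passes, and at least 5 of the 20 single entries below.

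The 45S entries held 75.1%, 75.3% and 74.9% of the counts in sgC replicates 1, 2 and 3. In sgZ1 they held 74.6%, 74.5% and 74.6%, and in sgZ3 75.2%, 75.3% and 75.1%. All 3 sgZ1 libraries lay below all controls, whereas the sgZ3 libraries lay among the controls. Over both guides the log2 difference was -0.0042 (SE 0.0038, 95% interval -0.014 to 0.0056, exact permutation p = 0.357), a fold of 0.997.

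The 28S entries, the RNA of the large subunit that holds the peptidyl transferase centre, held 21.2%, 20.3% and 20.9% of the sgC libraries. They held 21.7%, 20.8% and 21.4% in sgZ1 and 21.0%, 20.8% and 21.1% in sgZ3. The groups overlapped, and only sgZ1 replicates 1 and 3 exceeded the highest control. The log2 difference over both guides was 0.022 (SE 0.021, 95% interval -0.026 to 0.070, exact permutation p = 0.274).

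The 18S entries, the RNA of the small subunit that decodes the message, held 3.35%, 4.18% and 3.97% of the sgC libraries. They held 3.57%, 4.14% and 3.77% in sgZ1 and 3.68%, 3.82% and 3.70% in sgZ3. All 6 libraries with a ZNF692 guide lay inside the range of the 3 controls, whose SD was 0.432 percentage points against 0.0731 in sgZ3. The log2 difference was -0.015 (SE 0.10, 95% interval -0.17 to 0.15, exact permutation p = 0.869).

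The 5.8S entries, which pair with 28S in the large subunit, held 0.417%, 0.178% and 0.230% of the sgC libraries. They held 0.139%, 0.547% and 0.276% in sgZ1 and 0.134%, 0.109% and 0.164% in sgZ3. The highest library, sgZ1 replicate 2, had 5.03 times the share of the lowest, sgZ3 replicate 2. All sgZ3 libraries lay below all controls, while sgZ1 held both the highest value and one below every control. The mean was 0.275% ± 0.126 in sgC (SD, n = 3), 0.321% ± 0.208 in sgZ1 and 0.136% ± 0.0278 in sgZ3. The log2 difference over both guides was -0.42 (SE 0.51, 95% interval -1.94 to 1.15, exact permutation p = 0.476), so the interval covers folds from 0.261 to 2.21. It was -0.074 without sgC replicate 1, -0.69 without sgC replicate 2, -0.72 without sgZ1 replicate 2 and -0.26 without sgZ3 replicate 2.

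**Figure D1:**
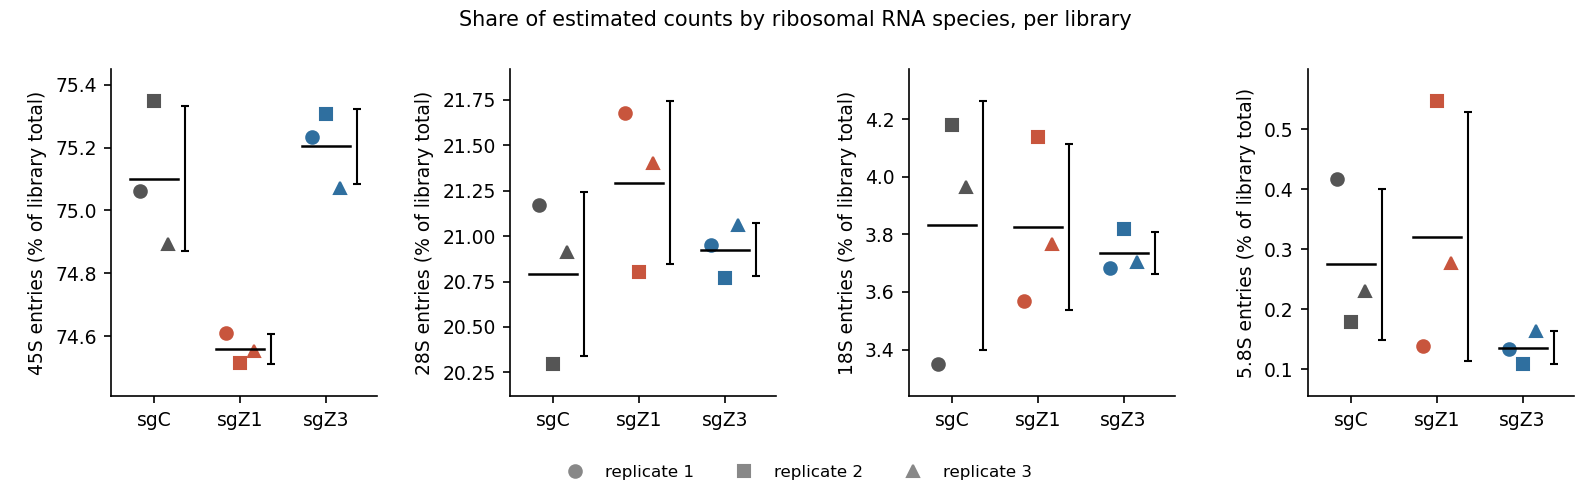
Percent of each library's estimated counts in 45S, 28S, 18S and 5.8S entries, by guide (points: libraries, with shapes for replicate numbers; horizontal lines: means; bars: SD, n = 3; vertical axes do not start at 0). The 3 sgZ1 libraries sit below the controls for 45S (74.5% to 74.6%) and the 3 sgZ3 libraries below them for 5.8S (0.109% to 0.164%).

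The ratio of the 28S to the 18S entries was 6.32, 4.85 and 5.27 in sgC. It was 6.07, 5.03 and 5.68 in sgZ1 and 5.69, 5.44 and 5.69 in sgZ3. All 6 libraries with a ZNF692 guide lay inside the control range. The log2 difference was 0.037 (SE 0.12, exact permutation p = 0.69), and its 95% interval, -0.15 to 0.23, covers folds from 0.899 to 1.17.

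The ratio of 45S to 18S was 22.4, 18.02 and 18.9 in sgC, 20.9, 18.01 and 19.8 in sgZ1, and 20.4, 19.7 and 20.3 in sgZ3. These values overlapped, and the log2 difference was 0.011 (SE 0.10, 95% interval -0.15 to 0.16, exact permutation p = 0.917). The ratio of 45S to 28S was 3.55, 3.71 and 3.58 in sgC, 3.44, 3.58 and 3.48 in sgZ1, and 3.59, 3.63 and 3.56 in sgZ3. Here sgZ1 replicates 1 and 3 lay below the lowest control, and the log2 difference was -0.026 (SE 0.023, 95% interval -0.082 to 0.027, exact permutation p = 0.286).

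Divided by the sum of the 3 mature species, 45S gave 3.01, 3.06 and 2.98 in sgC. It gave 2.94, 2.92 and 2.93 in sgZ1 and 3.04, 3.05 and 3.01 in sgZ3. This ratio nearly restates the 45S share, since almost all counts are in these 4 species. Over both guides the log2 difference was -0.017 (SE 0.015, 95% interval -0.057 to 0.022, exact permutation p = 0.357).

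The 3 ratios that contain 5.8S alone followed the 5.8S share. The ratio of 5.8S to 28S, both parts of the large subunit, was 0.0197, 0.00876 and 0.0110 in sgC. It was 0.00643, 0.0263 and 0.0129 in sgZ1 and 0.00641, 0.00523 and 0.00779 in sgZ3. The sgZ3 libraries lay below all controls and the sgZ1 libraries on both sides of them. The log2 difference was -0.44 (SE 0.50, 95% interval -1.91 to 1.09, exact permutation p = 0.464). For 5.8S over 18S it was -0.41 (SE 0.57, exact permutation p = 0.512), and for 45S over 5.8S 0.42 (SE 0.51, exact permutation p = 0.488).

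**Figure D2:**
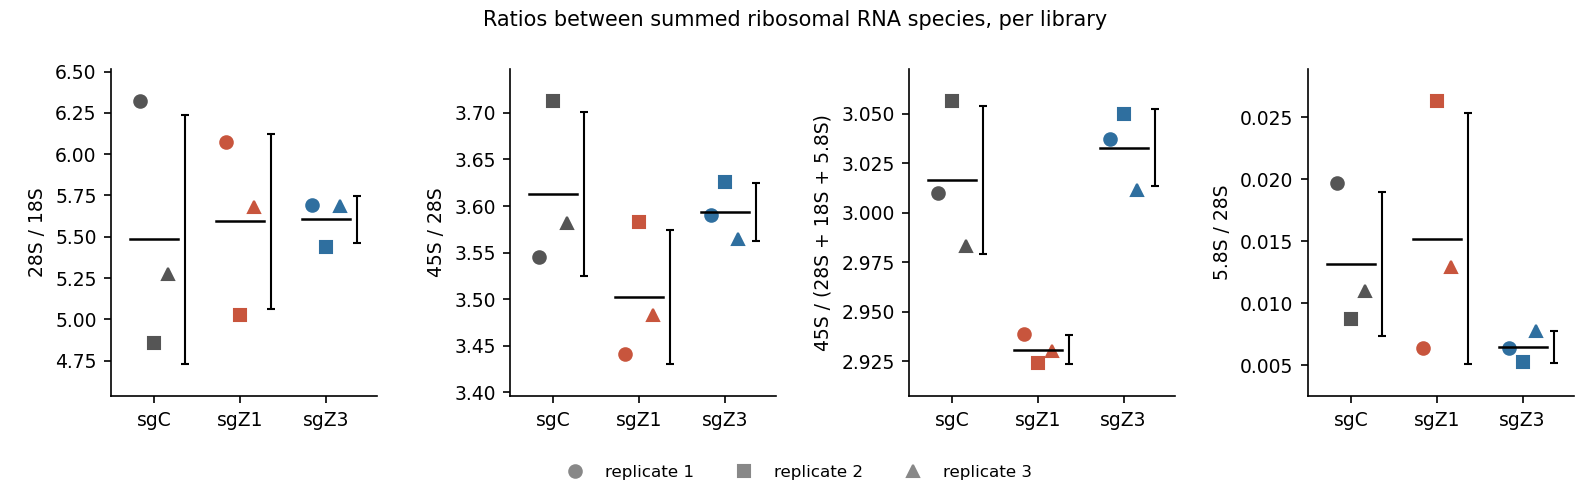
Ratios of summed estimated counts between rRNA species by guide (points: libraries, with shapes for replicate numbers; horizontal lines: means; bars: SD, n = 3; vertical axes do not start at 0). The 28S/18S ratio of all libraries with a ZNF692 guide (5.03 to 6.07) lies within the control range of 4.85 to 6.32.

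Of the 11 measures 0 passed the adjusted threshold of 0.05 over both guides, 0 had an unadjusted p under 0.05, and the lowest adjusted exact permutation p was 0.704. Since a lone change could not pass the adjusted threshold, the intervals say more than this count. The precision differed greatly between them. The 95% intervals for 45S and 28S shares and for 45S over 28S reach no further than 0.082 on the log2 scale, those with 18S reach no further than 0.23, and those with 5.8S reach beyond 1. For the 5.8S share, folds between 0.261 and 2.21 could not be told from no change in these libraries. Without the 2 libraries highest in 5.8S, sgC replicate 1 and sgZ1 replicate 2, a choice made after seeing the data, the 28S/18S difference became 0.17, the 45S/18S difference 0.13 and the 18S share difference -0.14. Each then had an exact permutation p of 0.0476, the smallest that 2 against 5 libraries allow, and an adjusted p of 0.175. Leaving out sgC replicate 2 alone turned the same 3 differences around, to -0.047, -0.053 and 0.051, and leaving out sgC replicate 3 alone turned the last 2 (-0.019 and 0.013), as did leaving out sgZ1 replicate 1 (-0.0045 and 0.0013).

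**Figure D3:**
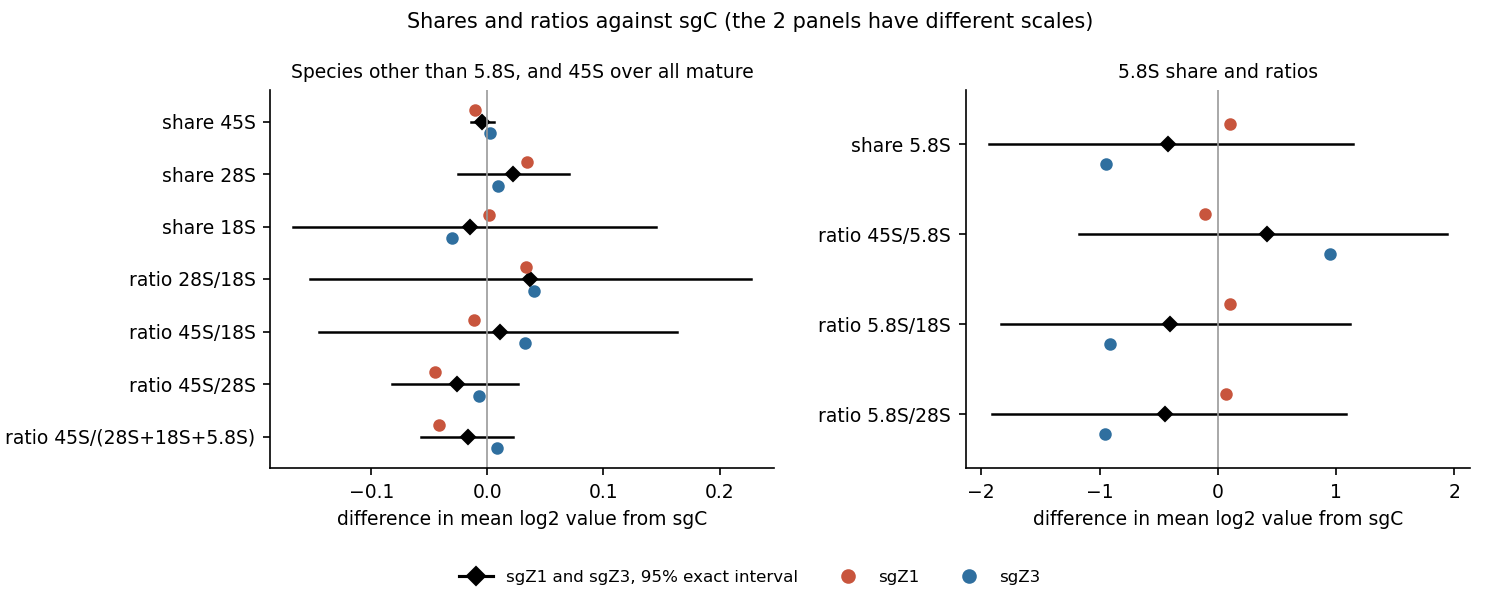
Difference in mean log2 share or log2 ratio from sgC for both guides together (diamonds, lines: 95% exact intervals), for sgZ1 and for sgZ3 (circles). All 11 intervals include 0, and the circles of sgZ1 and sgZ3 lie far apart for 5.8S (0.10 and -0.94 for its share).

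Each guide was then set against the controls, which both comparisons share, so the values stand side by side. With 3 against 3 libraries an exact permutation p cannot go below 0.1. For sgZ1 the share of 45S was lower without overlap (log2 difference -0.010, SE 0.0026), as was 45S over the mature sum (-0.042, SE 0.010), both with exact permutation p = 0.1. With only the most abundant copy of each species, and the share taken of their sum, these turned to 0.0064 and 0.019. Both then had exact permutation p = 0.7. For sgZ3 the same measures differed by 0.0020 (SE 0.0029) and 0.0079 (SE 0.012), both with exact permutation p = 0.6. For sgZ3 the 5.8S share was lower without overlap (-0.94, SE 0.40, a fold of 0.52), as was 5.8S over 28S (-0.95, SE 0.39), and 45S over 5.8S was higher (0.95, SE 0.40), all with exact permutation p = 0.1. Without sgC replicate 1 the 5.8S share difference of sgZ3 was -0.60. For sgZ1 the 5.8S share differed by 0.10 (SE 0.68, exact permutation p = 0.9), and by -0.39 to 0.59 when 1 library was left out. Of the 11 measures 2 were thus free of overlap for sgZ1 and 3 for sgZ3, and they were different measures. Those of sgZ1 nearly restate each other and those of sgZ3 all contain 5.8S, so they are not separate results. For each measure, a random split of 3 against 3 libraries is free of overlap with a probability of 0.1.

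The guides were also compared directly. The 45S share was 74.6% ± 0.0481 in sgZ1 and 75.2% ± 0.12 in sgZ3 (SD, n = 3), a log2 difference of 0.012 (SE 0.0014) without overlap, and 45S over the mature sum differed by 0.049 (SE 0.0057), both with exact permutation p = 0.1. These 2 of 11 measures separated the guides. When only the most abundant copy of each species was used, the difference of the 45S share was -0.0034 and that of the ratio -0.0099. That share was of the sum of the copies kept, so copies and denominator both changed. The kept copies, RNA45SN4, RNA28SN5, RNA18SN2 and RNA5-8SN1, were of different repeats. The direction thus depends on these choices.

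The 20 single entries, each as a share of the library total with a pseudocount of 0.5, gave the same count of calls. Over both guides 0 of 20 passed (percent of entries called: 0), 0 had an unadjusted exact permutation p under 0.05, and none separated the groups. The difference was below 0 for 16 entries and above 0 for 4. The lowest exact permutation p, 0.107, belonged to RNA28SN1 (0.060, SE 0.025) and RNA45SN3 (-0.024, SE 0.015). With rounded counts edgeR called 0 of 20 with library totals, lowest false discovery rate (FDR) 0.65, and 0 with TMM factors (0.79), while DESeq2 called 0 (0.87), each with 0 at an unadjusted p under 0.05.

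By guide, 1 of 20 entries was higher in sgZ1 without overlap (5% of all entries), the 28S copy RNA28SN2. It held 1.19%, 1.02% and 1.12% of the sgC libraries, 1.36%, 1.21% and 1.41% of the sgZ1 libraries and 1.14%, 1.03% and 1.09% of the sgZ3 libraries. The sgZ1 values exceeded all others, by 0.26 on the log2 scale against sgC (SE 0.090, exact permutation p = 0.1). Lower without overlap in sgZ1 were 3 of 20 (15%), namely RNA18SN5 (-0.11, SE 0.046), RNA45SN5 (-0.033, SE 0.0088) and RNA45SN1 (-0.026, SE 0.0090). In sgZ3, 1 of 20 was higher (5%), RNA28SN1 (0.083, SE 0.023), and 4 of 20 were lower (20%). The latter were the 5.8S copies RNA5-8SN1, RNA5-8SN2, RNA5-8SN3 and RNA5-8SN5, which moved together and do not count as separate evidence. By edgeR with library totals 0 entries were called for either guide against sgC, with 3 for sgZ1 (lowest FDR 0.093) and 1 for sgZ3 (lowest FDR 0.31) at an unadjusted p under 0.05.

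Among the rRNA entries, the difference between guides was the only comparison in which a count model made calls. Between the guides edgeR's quasi-likelihood test with library totals, added after seeing the data, called 3 of 20 entries (15%). The other count models were fitted only over both guides against sgC. The 45S copies RNA45SN4 (-0.011, FDR 0.62), RNA45SN2 (-0.013, FDR 0.62) and RNA45SN3 (0.0017, FDR 0.92) were not called. The 45S copies RNA45SN5 (log2 fold change 0.041, SE 0.0085, FDR 0.027) and RNA45SN1 (0.046, SE 0.011, FDR 0.030) were higher in sgZ3, and RNA28SN2 was lower (-0.29, SE 0.075, FDR 0.036). RNA45SN5 held 17.04%, 16.98% and 16.76% in sgZ1 and 17.34%, 17.46% and 17.42% in sgZ3. The exact test gave these 3 entries p = 0.1 each, with no overlap. Without overlap there were 2 higher (10%) and 2 lower (10%), the latter with the 28S copy RNA28SN3 (-0.11, SE 0.034).

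Copies of 18S and 28S took uneven parts of their species. RNA18SN2 and RNA18SN3 took 46.9% and 42.4% of 18S counts on average over the 9 libraries, and RNA18SN1, RNA18SN4 and RNA18SN5 took 2.65%, 5.36% and 2.66%. For 28S, RNA28SN5 took 45.9%, RNA28SN1 25.2%, RNA28SN3 23.3% and RNA28SN2 5.6%. The 45S entries were more even, from 12.9% for RNA45SN2 to 29.2% for RNA45SN4, the only copy whose own 28S has no separate entry, which also bears on every ratio with 28S. Of the 5.8S copies 4 took 24.1% to 26.1% each and RNA5-8SN4 took 0.166%. Such parts depend on how shared reads were divided and do not show which repeats were active.

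Over both guides 0 of the 19 copies (5S left out, percent called: 0) was called for its part of its own species. The lowest exact permutation p was 0.131. RNA28SN2 made up 5.60%, 5.05% and 5.38% of 28S in sgC, 6.28%, 5.83% and 6.59% in sgZ1, and 5.46%, 4.97% and 5.20% in sgZ3, with sgZ1 above all others. RNA5-8SN4 made up 0.135%, 0.142% and 0.150% of 5.8S in sgC, 0.194%, 0.131% and 0.149% in sgZ1, and 0.190%, 0.218% and 0.193% in sgZ3. The sgZ3 values lay above all controls (log2 difference 0.49, SE 0.078, exact permutation p = 0.1), on 123.4 to 421.3 estimated counts a library, and the sgZ1 values overlapped them. Copies without overlap were 1 higher (5.26%) and 2 lower (10.5%) for sgZ1, 2 higher (10.5%) and 1 lower (5.26%) for sgZ3, and 4 each way (21.1%) between the guides.

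**Figure D4:**
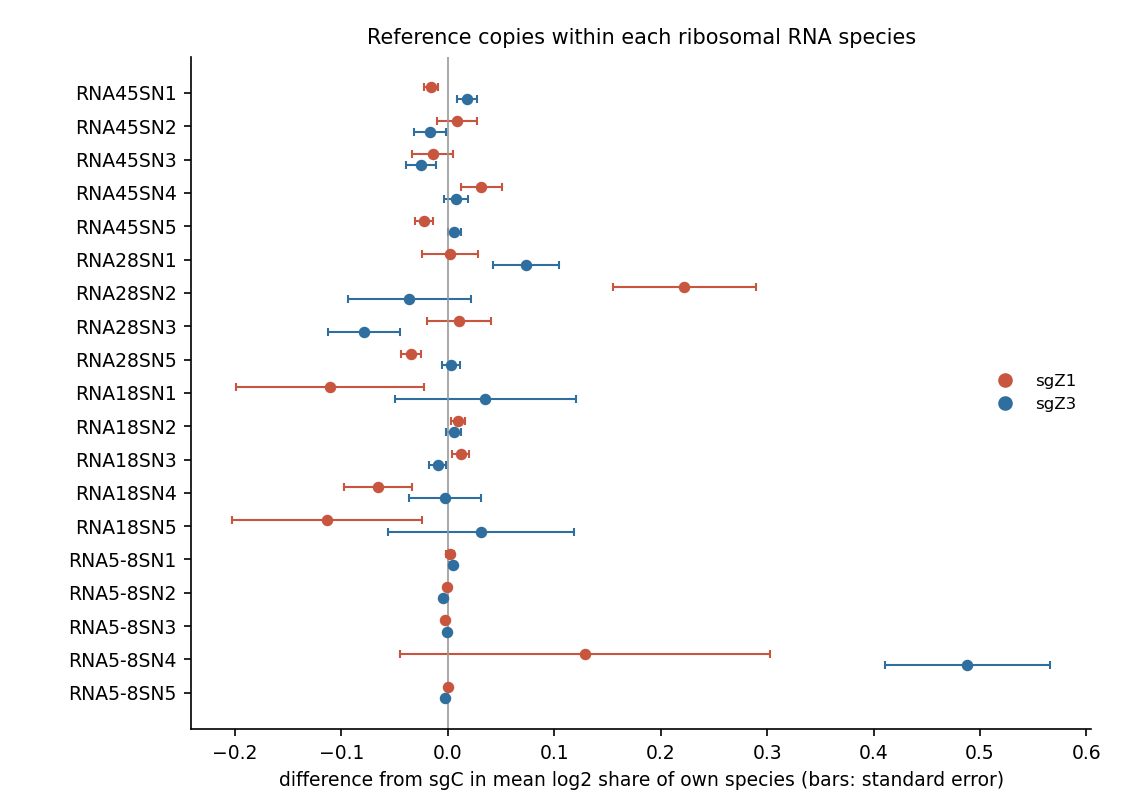
Difference from sgC in the mean log2 part that each reference copy takes of its own species, for sgZ1 and sgZ3 (points; bars: SE, n = 3 libraries a group). RNA28SN2 stands out in sgZ1 (0.22) and RNA5-8SN4 in sgZ3 (0.49), while the other 5.8S copies lie close to 0.

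The messenger RNAs of the factors that make and process rRNA were read from the poly(A) libraries of the same guides, in a list of 81 genes in 6 steps. Of these, 53 rose and 1 fell over both guides at an FDR under 0.05 (edgeR quasi-likelihood test over 14732 genes), against 18.6% of all tested genes higher and 14.6% lower (33.2% in either direction). The median log2 fold change was 0.37 for the list and 0.0078 for all genes. The size of this count depends on scaling, by alternatives chosen after seeing the data. With library totals alone 38 rose and 2 fell, the median of the list was 0.27 and that of all genes -0.093, and 36.6% of all calls were higher, compared with 56% with TMM factors. With upper-quartile factors 46 rose and 2 fell, and 45.9% of all calls were higher. Alone against sgC, sgZ1 gave 45 higher and 1 lower (15.5% and 10.3% of all genes, 25.8% in all) and sgZ3 gave 43 higher and 1 lower (19.2% and 17.1%, 36.3% in all). The 0 of 11 rRNA shares and ratios that passed came from a test that a lone change could not pass. The measures are relative as well, so that count cannot be set against these messenger RNA counts.

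At the first step, RNA polymerase I transcription, 7 of 15 rose and 1 fell over both guides. This count and those of the later steps stand beside 18.6% of all tested genes higher and 14.6% lower. In step order, sgZ1 alone gave 6, 8, 6, 6, 7 and 12 genes higher, and sgZ3 alone 5, 6, 4, 5, 8 and 15. Those higher here included the polymerase subunits POLR1B (log2 fold change 0.52, SE 0.086, FDR 0.0012) and POLR1E (0.57, SE 0.075, FDR 0.00037). Another was RRN3, the initiation factor that joins the polymerase to the promoter complex (0.43, SE 0.091, FDR 0.0046). RRN3 passed in sgZ1 (0.65, FDR 0.00075) and not in sgZ3 (0.21, FDR 0.12). TAF1D, a subunit of the promoter selectivity factor SL1, fell by 0.27 over both guides (SE 0.091, FDR 0.038). Its change passed in sgZ1 (-0.33, FDR 0.039) and not in sgZ3 (-0.21, FDR 0.13). The call over both guides was lost under 7 of the alternatives, among them no low-count filter.

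For cleavage around the 5' external spacer and the 18S start, 8 of 12 rose and 0 fell. DHX37, an RNA helicase of the small-subunit processome, had 42.5, 41.9 and 44.4 CPM (with TMM-scaled totals) in sgC, 76.0, 79.3 and 89.6 in sgZ1, and 62.7, 70.4 and 72.3 in sgZ3. All libraries of both guides exceeded all controls (0.80, SE 0.088, FDR 0.00017). NOL6, another processome protein, rose by 0.66 and RCL1, which acts in early 18S cleavage, by 0.54. At the 18S 3' end 7 of 9 rose, among them BYSL (0.61), TSR1 (0.42) and AK6 (0.55), which act in late small-subunit assembly.

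For the second internal spacer, between 5.8S and 28S, 6 of 9 rose. PES1 (0.67, SE 0.079) and BOP1 (0.77, SE 0.10) form a complex needed for large-subunit rRNA processing, and LAS1L (0.38) is the endonuclease that cuts this spacer. Among the exonucleases that trim 5.8S and 28S ends and their partners, 10 of 17 rose. EXOSC2, a cap subunit of the RNA exosome, had 21.3, 20.6 and 21.6 CPM in sgC, 27.9, 36.4 and 29.6 in sgZ1, and 35.1, 37.6 and 33.4 in sgZ3, all above the controls (0.65, SE 0.10, FDR 0.00084). MPHOSPH6, an exosome cofactor in 5.8S 3' end processing, rose by 0.59, and ISG20L2, an exonuclease acting in 5.8S maturation, by 0.47. The catalytic exosome subunits DIS3 (0.022, SE 0.087, FDR 0.87) and EXOSC10 (0.11, SE 0.093, FDR 0.36) did not pass.

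Of the modification enzymes 15 of 19 rose. DKC1, the pseudouridine synthase of box H/ACA particles, rose by 0.52, its partner NHP2 by 0.61, and NSUN5, a 28S cytosine methyltransferase, by 0.67.

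**Figure D5:**
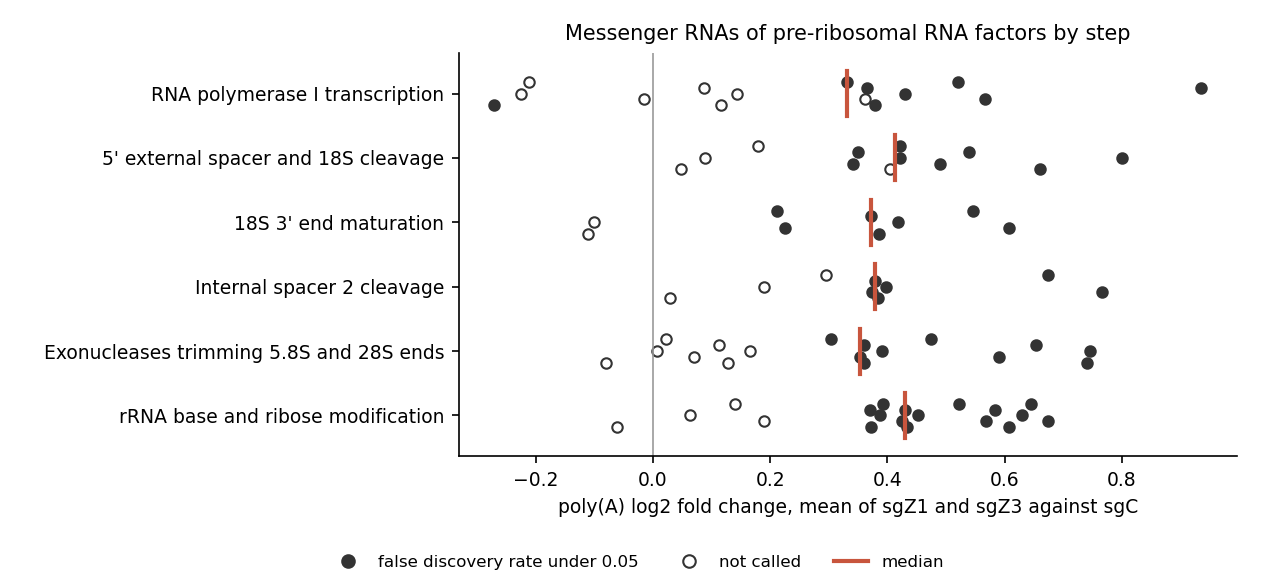
Log2 fold change over both guides in poly(A) libraries for 81 genes of rRNA synthesis and processing, by step (filled points: FDR under 0.05; open points: not called; vertical lines: medians). The median of each step lies between 0.33 and 0.43, and 53 genes are called higher and 1 lower.

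ZNF692 messenger RNA was not lower in the libraries labelled knockout. It had 7.01, 6.32 and 6.18 CPM in sgC, 9.64, 9.82 and 11.5 in sgZ1, and 7.92, 8.08 and 6.29 in sgZ3, a log2 fold change of 0.43 (SE 0.12, FDR 0.022) whose call was lost under several alternatives. Indels from CRISPR can leave messenger RNA in place, so this checks no label. The rRNA table holds no gene that could check a guide. The epithelial markers were abundant in all poly(A) libraries (EPCAM 959 to 1550 CPM, KRT8 2870 to 3890, KRT18 2340 to 3310, CDH1 435 to 823), and of the colorectal ones CDX2 (179 to 230) and CDH17 (257 to 427) were too, while VIL1 (8.68 to 16.0), LGALS4 (1.49 to 4.72) and CDX1 (0.203 to 0.868) were low. Of the mesenchymal markers VIM, SPARC and COL1A1 were highest in sgZ1 replicate 2 and sgZ3 replicate 3, at up to 22.9, 66.8 and 15.2 CPM. In the other libraries VIM and COL1A1 were at or below 1.22 and 1.40, and SPARC ran from 3.73 to 5.91, controls included. COL1A2 and COL3A1 stayed at or below 0.0819 and 0.737. The leukocyte marker PTPRC and endothelial marker PECAM1 were at or below 0.195 and 0.233. As the mean of both guides LGALS4 and CDH17 were lower by edgeR, with log2 fold changes of -0.90 (FDR 0.0013) and -0.32 (FDR 0.014). Each guide set alone against sgC, they passed in sgZ1 (-1.39, FDR 0.00019, and -0.55, FDR 0.0017). In sgZ3 they did not pass (-0.42, FDR 0.080, and -0.085, FDR 0.52). EPCAM was lower in sgZ1 (-0.26, FDR 0.031) and higher in sgZ3 (0.36, FDR 0.0050). The part of these marker differences in the gene list was not tested. Without the 2 libraries with mesenchymal markers, a choice made after seeing the data, 59 of the 81 genes rose and 4 fell. Of all 14923 genes tested there, 7409 were called, 3442 higher and 3967 lower (46.5% of calls higher). The median log2 fold change was then 0.325 for the list and -0.032 for all genes. Whether poly(A) and rRNA libraries with the same number came from the same RNA is not given in the sources used here.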

How the data were processed

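The authors deposited estimated counts, which need not be whole, for rRNA, and raw counts of whole reads per gene for poly(A) RNA (judged from the values). Among the tools and builds in the submitters' processing notes are STAR 2.5.2b, SAMtools 1.9, HTSeq and DESeq2, and hg38 and GRCh38, whose roles are not stated there. The sources used here give no counting rule, strand setting or annotation. Of the 47021 poly(A) genes 14732 passed filterByExpr, and 0 were rRNA entries.

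Groups and replicate numbers came from the titles. One sgC poly(A) sample's description names the rRNA table, and its title and molecule place it in poly(A). Copies were summed by species, shares and ratios were taken on the log2 scale with a pseudocount of 0.5, and groups were compared by two-sided exact permutation tests, with 95% intervals from inverting the test. Poly(A) counts, and rounded rRNA counts as an alternative, were fitted with edgeR 4.0.16 and limma 3.58.1 in R 4.3.3 over all 9 libraries. CPM values use TMM-scaled totals. DESeq2 1.42.0 was another alternative. Scripts were tested on simulated data.

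Members, lists and tests were chosen with earlier results of these data known. Named were all species and entries, ZNF692 and, per step, up to 3 called genes with the smallest adjusted p. TAF1D, the 1 gene that fell, DIS3 and EXOSC10 were named after their values were seen. Same-numbered libraries did not steadily deviate together in rRNA (r -0.946 to 0.972, 2 of 9 pairs over 0.1, against 8 of 18 other pairs). In poly(A) r ran from -0.121 to 0.249 (3 of 9 over 0.1, against 4 of 18). The 5.8S copies, which varied most and moved together, weigh most in the rRNA values. This check thus cannot decide whether libraries are paired, and no pairing was used in the main tests. Intervals over libraries do not cover how reads were divided. Only 5.8S copies on chromosome 21 had sequence in the reference used.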

Additional observations from a re-analysis of the deposited data

Results flagged for a closer look

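Some entries moved in opposite directions from the control mean in every library of the 2 guides. As shares of the total these were RNA45SN5 (sgZ3 minus sgZ1 log2 difference 0.041), RNA45SN1 (0.046) and RNA28SN3 (-0.11). As parts of their own species they were RNA45SN1 (0.034) and RNA18SN3 (-0.022). The exact test of 3 against 3 libraries cannot pass 0.05, so for the parts of a species the difference was not tested by a test that could pass. By edgeR with library totals the difference between guides passed for RNA45SN5 (0.041), RNA45SN1 (0.046) and RNA28SN2 (-0.29), and did not pass for RNA28SN3 (-0.11, FDR 0.079).

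In the poly(A) libraries 28.6% of all tested genes differed between the guides by edgeR. Of the named list genes, the level was lower in sgZ3 than in sgZ1 for POLR1E (sgZ3 minus sgZ1 -0.26, FDR 0.038), RRN3 (-0.43, FDR 0.0083) and BOP1 (-0.37, FDR 0.030). ZNF692 itself was lower too (-0.48, FDR 0.025). The cell type markers called between the guides were instead higher in sgZ3. They were EPCAM (0.62, FDR 0.00014), KRT18 (0.32, FDR 0.023), CDX2 (0.23, FDR 0.046), CDH17 (0.46, FDR 0.0044) and LGALS4 (0.97, FDR 0.0025).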

How the results depend on the processing

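Over 191 values of the 11 measures under the alternatives, 0 had an adjusted exact permutation p under 0.05 (lowest 0.175), and 3 had an unadjusted one, given above. With few libraries that first count could hardly be otherwise: without 1 sgC library (smallest p 0.036) 8 of the 11 measures, and with the replicate block 9, must reach the smallest p before any passes. Using only the most abundant copy of each species turned the log2 differences over both guides to 0.0048 for the 45S share, -0.0047 for the 28S share, 0.0094 for 45S over 28S and 0.014 for 45S over the mature sum, and those of sgZ1 to 0.0064 for the 45S share and 0.019 for the last ratio. Between guides they became -0.0034 and -0.0099. The shares were then taken of the sum of the copies kept, not of the library total. A centred log-ratio, whose centre moves with 5.8S by construction, gave 0.10 for the 45S share and 0.090 for the 18S share. Leaving out 1 library at a time, the differences ranged from -0.047 to 0.14 for 28S over 18S, -0.053 to 0.10 for 45S over 18S, -0.74 to 0.035 for 5.8S over 18S and -0.11 to 0.051 for the 18S share. With their sign kept, they ranged from -0.72 to -0.074 for the 5.8S share, 0.069 to 0.72 for 45S over 5.8S, -0.75 to -0.11 for 5.8S over 28S, 0.0046 to 0.035 for the 28S share, -0.0062 to -0.0019 for the 45S share, -0.040 to -0.0065 for 45S over 28S and -0.025 to -0.0073 for 45S over the mature sum. The cause was not tested. With the replicate block (27 arrangements, smallest p 0.037) the 5.8S share difference stayed at -0.42 with exact permutation p = 0.593, the 28S share at 0.022 with p = 0.185, and 0 of 11 measures and 0 of 20 entries passed, where 15 entries would have had to reach that p. By edgeR with the block and library totals 0 entries passed and 1 had an unadjusted p under 0.05 (lowest FDR 0.32). The block gave 54 higher list genes and 5488 poly(A) calls in all.

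Of the 81 list genes 32 to 56 were called higher when 1 library was left out, lowest without sgC replicate 1, when 2201 of all genes were called (2389 without sgC replicate 3, up to 6337 otherwise). Without the 2 libraries with mesenchymal markers 7409 were called, 3442 higher and 3967 lower. Of 320 values of 20 named genes 13 lost their call, all in TAF1D and ZNF692, and 0 changed direction.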
